A study of Mus musculus with 12 samples.

Results

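Ngp, S100a8, S100a9, Ltf, Camp, Mpo, Elane, Mmp8, Mmp9 and Cxcr2 encode proteins that fill the granules and cytosol of neutrophils or sit on their surface. These 10 genes were taken by symbol from the 19938 genes read by a probe set with 1 gene symbol, and each was read by the probe set with the highest mean over the 12 arrays. The arrays measured whole-kidney RNA of 3-week-old mice in 4 groups. PpargΔ/Δ mice are labelled as deleted for Pparg, the gene of the nuclear receptor PPARγ that fat cells need to form, and were set against control mice of the same mixed C57BL6/SV129 background. AZIP mice, on the FVB background, were set against FVB control mice. In the literature the A-ZIP/F transgene encodes a dominant-negative leucine-zipper protein that blocks C/EBP and AP-1 factors in fat tissue, but the labels do not name the promoter that drives it here, the part of Pparg that is missing or the cells that lost it. Each group had 3 arrays, hybridised with RNA pooled from 3 mice apiece, and the spread between arrays is that between pools (n = 3 throughout). No label gives a batch.

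A neutrophil makes its proteins in a fixed order while it matures in the bone marrow. Primary granules, with myeloperoxidase and elastase, are filled first, then secondary granules with lactoferrin, cathelicidin and Ngp, then gelatinase granules with Mmp9. Transcripts of primary granule proteins are therefore largely gone from circulating neutrophils, and those of secondary granule proteins are reduced there too. S100A8 and S100A9 pair into calprotectin, a calcium- and zinc-binding complex that makes up much of the neutrophil cytosol, and that inflamed epithelial cells can also make. In the kidney, neutrophils are sparse in health and enter during acute injury and infection. In bulk RNA, fewer cells of a type and less RNA per cell cannot be told apart.

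The promoters of the 4 members that were higher in PpargΔ/Δ kidneys are shown because granule genes are classic targets of C/EBP and PU.1 factors. Each run holds 250 bases before and 50 bases after the annotated start, 5′ to 3′ on the gene's strand, from RefSeq on GRCm38.p6. Capitals mark matches on either strand to a C/EBP motif (TTNNGNAA), a PU.1 motif (GAGGAA) or a TATA box (TATAAA).
Ngp, chr9:110419558-110419857, plus strand: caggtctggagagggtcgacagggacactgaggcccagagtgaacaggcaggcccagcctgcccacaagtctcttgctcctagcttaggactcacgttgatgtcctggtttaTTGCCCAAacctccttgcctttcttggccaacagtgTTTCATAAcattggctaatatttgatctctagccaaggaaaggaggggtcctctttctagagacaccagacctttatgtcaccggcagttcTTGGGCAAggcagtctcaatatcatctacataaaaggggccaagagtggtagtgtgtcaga
S100a8, chr3:90668821-90669120, plus strand: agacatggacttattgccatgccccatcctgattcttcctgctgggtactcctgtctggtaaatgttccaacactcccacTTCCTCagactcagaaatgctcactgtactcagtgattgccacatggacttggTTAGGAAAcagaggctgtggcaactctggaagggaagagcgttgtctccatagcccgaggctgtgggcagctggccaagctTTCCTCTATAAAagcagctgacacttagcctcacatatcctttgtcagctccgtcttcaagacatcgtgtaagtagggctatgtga
S100a9, chr3:90695672-90695971, minus strand: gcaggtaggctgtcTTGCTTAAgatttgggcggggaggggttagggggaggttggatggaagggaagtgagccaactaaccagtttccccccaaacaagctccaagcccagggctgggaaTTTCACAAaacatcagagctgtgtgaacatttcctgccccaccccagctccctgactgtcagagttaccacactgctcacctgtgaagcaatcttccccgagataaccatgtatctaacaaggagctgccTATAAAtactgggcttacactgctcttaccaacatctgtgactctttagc
Mmp8, chr9:7558179-7558478, plus strand: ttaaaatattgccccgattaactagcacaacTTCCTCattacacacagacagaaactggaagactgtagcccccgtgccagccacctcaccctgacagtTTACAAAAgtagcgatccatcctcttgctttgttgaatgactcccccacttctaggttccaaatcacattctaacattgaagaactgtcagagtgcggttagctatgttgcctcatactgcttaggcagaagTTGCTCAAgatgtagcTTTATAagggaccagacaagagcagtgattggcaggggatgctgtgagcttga
Ngp held 3 C/EBP matches, S100a8 held 1, and S100a9 and Mmp8 held 2 each. PU.1 matches numbered 2 in S100a8, of which 1 abuts the TATA box without overlap, 1 in Mmp8 and 0 in Ngp and S100a9. The TATAAA match began 30 bases before the start in S100a8, and at the annotated start itself in S100a9. In Mmp8 it lay on the opposite strand, beginning 3 bases before the annotated start. Among 32851 promoters of this length, 40.7% held the C/EBP motif, 28.3% the PU.1 motif and 13.6% the TATA box, so a match is common. Of the 9 members with a promoter in the table, Camp held none of the 3 motifs, and Mpo, Elane and Cxcr2 held PU.1 matches alone. S100a8 and S100a9 are direct neighbours on chromosome 3. Camp, Ngp and Ltf share a stretch of chromosome 9, with 8 protein-coding genes between Camp and Ngp and 20 between Ngp and Ltf.

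All values below are the deposited log2 RMA readings, and differences are log2 differences with the SE of limma. A background level of 6.06 was set at the 95th percentile of 1035 olfactory receptor probe sets, genes that a kidney hardly uses. A gene is called dim in a comparison when both group means lie at or below it. For a dim gene a log2 difference between readings is given and no fold. Array medians lay between 7.17 and 7.21, and 9 measured kidney segment genes read above the background level in all 4 groups. The Pparg probe set read 8.0, 8.19 and 8.01 in PpargΔ/Δ kidneys, against 7.90, 7.97 and 8.02 in controls. Its difference was 0.11 ± 0.06 (limma adjusted p = 0.339), so the genotypes are taken from the labels and were not checked by this probe set.

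In PpargΔ/Δ kidneys S100a8, S100a9, Ngp and Mmp8 were higher than in controls, by 0.53 to 0.82 on the log2 scale, and Mmp9 was lower by 0.41. These were 4 members called higher and 1 called lower at an adjusted p under 0.05, against 2.67% of all genes called higher and 2.62% called lower. The members were chosen with earlier results of these data known, so their counts beside those of all genes are a description. Ltf, Camp and Cxcr2 had positive differences that did not pass, and the primary granule genes Mpo and Elane had small negative ones. Of the 10 members 6 were dim (Ngp, S100a8, Mpo, Elane, Mmp8 and Cxcr2), and 3 of those 6 were called higher. Among all genes dim in both groups 0.562% were called higher. The median difference of the members was 0.31, against -0.0089 over all genes, and 7 members had an unadjusted p under 0.05, as did 20.4% of all genes.

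**Figure D1:**
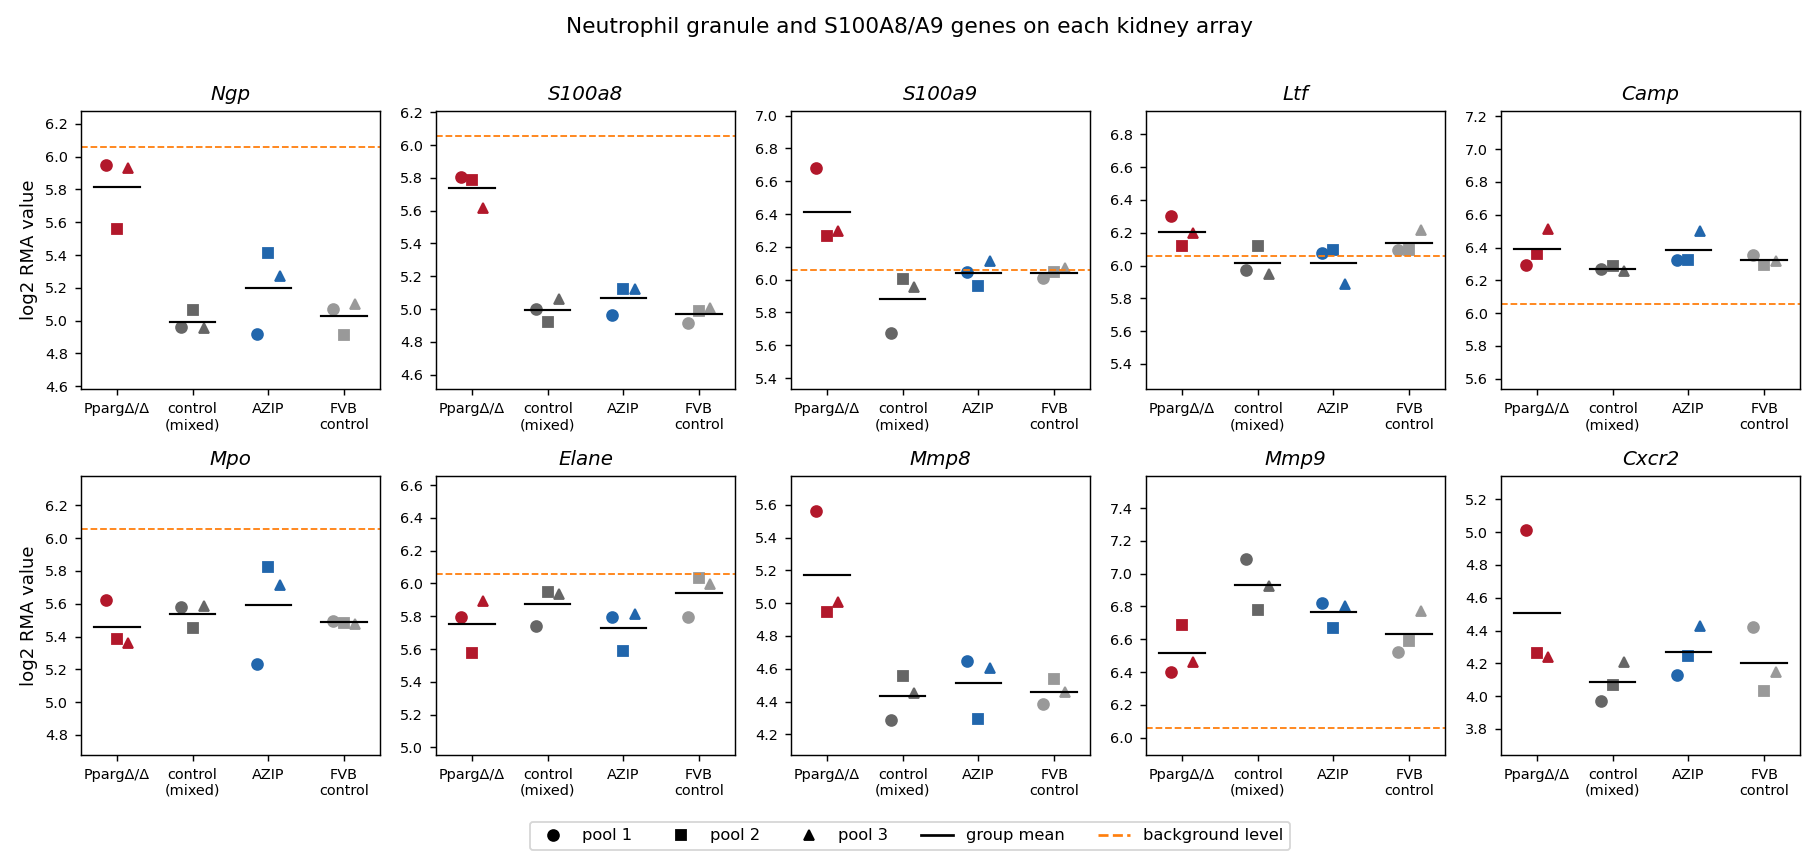
The log2 RMA reading of each gene (vertical axis, its own range in each panel) is plotted for every array of the 4 groups, with marker shapes for the pool number, a black bar for the group mean and a dashed line at the background level of 6.06. PpargΔ/Δ pools of S100a8 sit at 5.62 to 5.81, above the controls at 4.92 to 5.06, and both lie under the background level. Mmp9 is the member whose PpargΔ/Δ pools all lie below the controls.

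S100a8, the smaller calprotectin subunit, read 5.81, 5.79 and 5.62 in PpargΔ/Δ kidneys, against 5.0, 4.92 and 5.06 in controls. All PpargΔ/Δ pools stood above all controls and the pools of each group lay close together. The difference was 0.74 ± 0.07 (95% interval 0.60 to 0.89, limma adjusted p = 0.000305), which ranked 7 by p among all genes although the gene was dim. S100a9, its partner, read 6.68, 6.26 and 6.29 in PpargΔ/Δ kidneys, against 5.68, 6.0 and 5.96 in controls. The groups did not overlap, and every PpargΔ/Δ pool was above the background level while every control pool was below it. The difference was 0.53 ± 0.11 (limma adjusted p = 0.0185). With controls set to the background level the group means gave 1.28-fold, a point estimate without an interval. Without control pool 1, the lowest reading, the log2 difference was 0.43 and missed the threshold (limma adjusted p = 0.0749).

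Ngp, a cathelicidin-related protein of secondary granules, read 5.95, 5.56 and 5.93 in PpargΔ/Δ kidneys, against 4.96, 5.06 and 4.96 in controls. All PpargΔ/Δ pools stood above all controls, and both groups were dim. The difference was 0.82 ± 0.13 (95% interval 0.54 to 1.09, limma adjusted p = 0.0050). Ltf, the iron-binding protein lactoferrin of the same granules, read 6.30, 6.12 and 6.20 in PpargΔ/Δ kidneys, against 5.98, 6.12 and 5.95 in controls. The lowest PpargΔ/Δ pool and the highest control both read 6.12, and the difference of 0.19 ± 0.07 did not pass (limma adjusted p = 0.161). Camp, the antimicrobial peptide precursor cathelicidin, read 6.29, 6.36 and 6.51 in PpargΔ/Δ kidneys, against 6.27, 6.29 and 6.26 in controls. Its 3 PpargΔ/Δ pools were all above the controls by a narrow margin, and the difference was 0.12 ± 0.06 (limma adjusted p = 0.330). Camp and Mmp9 were the members above the background level in all 4 groups.

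Mpo, the peroxidase that makes hypochlorous acid, read 5.62, 5.38 and 5.36 in PpargΔ/Δ kidneys, against 5.58, 5.45 and 5.59 in controls. Elane, the serine protease neutrophil elastase, read 5.79, 5.58 and 5.89 in PpargΔ/Δ kidneys, against 5.74, 5.95 and 5.94 in controls. Both were dim with overlapping groups. Their differences were -0.08 ± 0.12 for Mpo and -0.12 ± 0.10 for Elane (limma adjusted p = 0.768 and 0.538), and the 95% intervals reached no higher than 0.19 and 0.09.

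The 2 matrix metalloproteinases moved in opposite directions. Mmp8, the neutrophil collagenase, read 5.56, 4.95 and 5.01 in PpargΔ/Δ kidneys, against 4.29, 4.56 and 4.45 in controls. The groups did not overlap, both were dim, and PpargΔ/Δ pool 1 stood apart from the other two. The difference was 0.74 ± 0.15 (limma adjusted p = 0.0166). It was 0.54 without PpargΔ/Δ pool 1 (limma adjusted p = 0.0180) and 0.66 without control pool 1, where it missed the threshold (limma adjusted p = 0.0736). Mmp9, gelatinase B, which macrophages and kidney epithelium can also make, read 6.40, 6.69 and 6.46 in PpargΔ/Δ kidneys, against 7.09, 6.78 and 6.92 in controls. All PpargΔ/Δ pools were below all controls and all readings were above the background level. The difference was -0.41 ± 0.10 (0.751-fold, limma adjusted p = 0.0331). It missed the threshold without PpargΔ/Δ pool 1 or 3 or without control pool 1 or 3, with a limma adjusted p of up to 0.121 and a difference that stayed at -0.33 or below.

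Cxcr2, the receptor through which CXC chemokines draw neutrophils into tissue, read 5.01, 4.26 and 4.24 in PpargΔ/Δ kidneys, against 3.97, 4.07 and 4.21 in controls. PpargΔ/Δ pool 1 carried most of the difference of 0.42 ± 0.18 (limma adjusted p = 0.212), which was 0.17 without it (limma adjusted p = 0.489). All Cxcr2 readings were under the background level. Counted over the members, 7 had every PpargΔ/Δ pool above every control, Ltf barely so, and 1, Mmp9, had every PpargΔ/Δ pool below. Over all genes 12.9% were separated in the upward direction and 13.2% in the downward one.

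In AZIP kidneys 0 of the 10 members were called by limma and 0 reached an unadjusted p under 0.05. Among all genes 2.43% were called and 16.4% had an unadjusted p under 0.05. The groups overlapped for every member, whereas 22.5% of all genes had groups that did not overlap. S100a8 read 4.96, 5.12 and 5.12 in AZIP kidneys, against 4.91, 4.99 and 5.0 in FVB controls. S100a9 read 6.05, 5.96 and 6.11 in AZIP kidneys, against 6.01, 6.05 and 6.07 in FVB controls. Neither subunit set AZIP apart: the differences were 0.10 (95% interval -0.04 to 0.25, limma adjusted p = 0.507) for S100a8 and -0.0037 (95% interval -0.24 to 0.23, limma adjusted p = 0.992) for S100a9. Ngp read 4.92, 5.41 and 5.27 in AZIP kidneys, against 5.07, 4.91 and 5.10 in FVB controls, so that AZIP pool 1 lay among the controls and the other two above them. Its difference was 0.17 (95% interval -0.10 to 0.45, limma adjusted p = 0.564). Mmp8 read 4.65, 4.29 and 4.60 in AZIP kidneys, against 4.39, 4.54 and 4.46 in FVB controls. That was a difference of 0.05 (95% interval -0.26 to 0.37). The median difference of the members was 0.07, against 0.0028 over all genes, and 7 of them were dim.

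The remaining members lay within 0.21 of their FVB controls. Mmp9 read 6.82, 6.67 and 6.80 in AZIP kidneys, against 6.52, 6.59 and 6.77 in FVB controls, a difference of 0.13 (limma adjusted p = 0.560). Ltf read 6.07, 6.09 and 5.89 in AZIP kidneys, against 6.09, 6.10 and 6.22 in FVB controls, a difference of -0.12 (limma adjusted p = 0.483). Elane had a difference of -0.21 ± 0.10 (limma adjusted p = 0.309). Mpo had 5.23, 5.82 and 5.72 in AZIP kidneys, against 5.49, 5.49 and 5.48 in FVB controls, so that the AZIP pools straddled a tight control group. Its difference was 0.11 (limma adjusted p = 0.754). Camp (0.06, limma adjusted p = 0.702) and Cxcr2 (0.07, limma adjusted p = 0.908) differed by less.

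**Figure D2:**
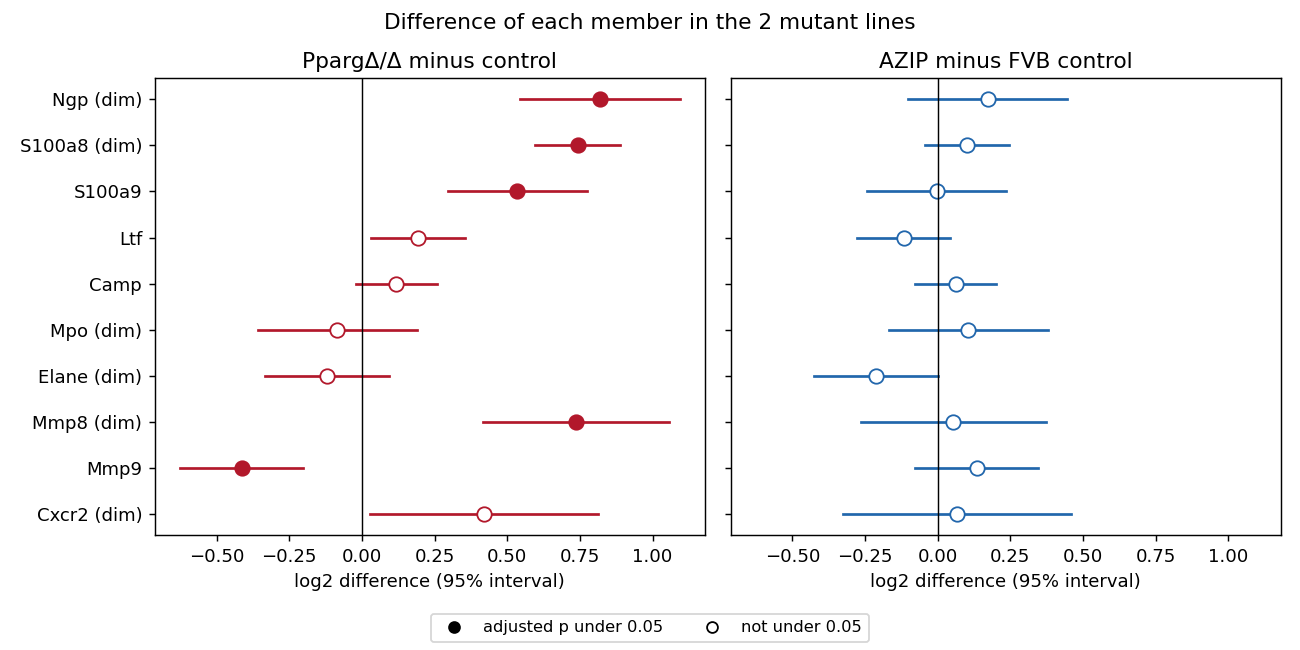
The log2 difference of each of the 10 genes (points, with 95% intervals from limma) is plotted for PpargΔ/Δ minus control on the left and AZIP minus FVB control on the right, with filled points for an adjusted p under 0.05 and the word dim beside genes whose PpargΔ/Δ and control means were both at or below the background level. S100a8, Ngp, Mmp8, S100a9 and Mmp9 are filled on the left, and no point is filled on the right.

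Whether the members moved differently in the mutant lines was tested directly, as the PpargΔ/Δ difference minus the AZIP difference. S100a8 came nearest to the threshold, with 0.64 ± 0.09 (limma adjusted p = 0.0615), rank 7 by p among all genes. By limma 0 members passed, as did 0.0201% of all genes, which are 4 genes. At an unadjusted p under 0.05 there were 6 members, S100a8, Ngp (0.65), Mmp8 (0.68), S100a9 (0.54), Ltf (0.31) and Mmp9 (-0.55), against 5.82% of all genes. The adjusted p of the other 5 lay between 0.582 and 0.813. S100a8 passed with array weights (limma adjusted p = 0.0447) and without PpargΔ/Δ pool 3 (limma adjusted p = 0.0302). A difference between the lines is therefore shown for no member at the threshold used.

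The mutant lines sit on different strain backgrounds, so the control groups were compared too, over arrays that also serve in the comparisons above. FVB controls differed from mixed-background controls in 0 of the 10 members by limma, against 7.22% of all genes. An unadjusted p under 0.05 was reached by 1 member, Mmp9, with 6.52, 6.59 and 6.77 in FVB controls, against 7.09, 6.78 and 6.92 in mixed-background controls. That difference was -0.30 ± 0.10 (limma adjusted p = 0.0942). The order of its group means, high to low, was mixed-background control, AZIP, FVB control, PpargΔ/Δ, with neighbouring means 0.11 to 0.17 apart and SDs of up to 0.16. For S100a8 the PpargΔ/Δ mean of 5.74 stood 0.67 above the next mean, and the means of the other 3 groups lay between 4.97 and 5.07, with SDs of 0.05 to 0.09. For Ngp and Mmp8 the PpargΔ/Δ mean was also highest, with the next mean 0.61 and 0.66 lower. Their SDs were larger, at up to 0.25 and 0.34. For S100a9 the gap to the next mean was 0.37, with SDs of up to 0.23. Among the lists below, 3 of 10 macrophage and monocyte genes were lower in FVB controls, Adgre1 (-0.95 ± 0.21), C1qc (-0.84 ± 0.21) and C1qb (-0.78 ± 0.17), with limma adjusted p of 0.0173, 0.0311 and 0.0142. Lower in FVB controls were also the S100A8/A9 receptor partner Ly96 (-0.49 ± 0.13), the adaptor Myd88 (-0.28 ± 0.07) and the transcription factor Cebpb (-0.41 ± 0.09), with limma adjusted p of 0.0374, 0.0236 and 0.0231. The podocyte gene Nphs1 was higher there, by 0.23 ± 0.05 (limma adjusted p = 0.0149).

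PpargΔ/Δ pool 1 was the highest of the 3 PpargΔ/Δ arrays for 7 of the 10 members, and for 33.2% of all genes. For S100a9, Mmp8 and Cxcr2 it stood clear of the other two, whereas for S100a8 (5.81 against 5.79) and Ngp (5.95 against 5.93) another pool was as high. The same array was highest for 10 of 10 measured macrophage and monocyte genes, 5 of 5 NADPH oxidase genes, 9 of 11 neutrophil surface genes and 7 of 9 secondary granule genes. It was highest for 5 of 10 chemoattractants, 3 of 7 mature neutrophil genes, 2 of 4 primary granule genes and 2 of 7 basal urothelium genes, and for 0 of the measured platelet, B cell, and mast cell and eosinophil genes. Lyz2, the lysozyme of macrophages and neutrophils, read 10.4, 9.20 and 9.47 in PpargΔ/Δ kidneys, against 8.76, 8.73 and 9.16 in controls. Clec4e, the myeloid lectin receptor Mincle, read 5.74, 4.49 and 4.18 in PpargΔ/Δ kidneys, against 4.06, 4.27 and 4.29 in controls. The summed linear reading of the macrophage list was 5412 in that pool and 3382 and 3746 in the other PpargΔ/Δ pools, against 3072 to 3586 in controls. Without PpargΔ/Δ pool 1, S100a8 (0.71), Ngp (0.75), S100a9 (0.40) and Mmp8 (0.54) remained called, and Mmp9 (-0.36) did not.

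Pairs of members followed each other to different degrees over the 12 arrays, which share their groups and their normalization, so these correlations are descriptions. Pearson's r was 0.95 for S100a9 with Mmp8, and 0.91 when group means were removed. Both genes read highest of their group in PpargΔ/Δ pool 1 and lowest of their group in control pool 1, and Mmp8 was dim. S100a8 with S100a9, encoded side by side, had 0.81 over the arrays and 0.23 once group means were removed. Ngp with S100a8 had 0.90 and 0.16. With group means removed, S100a9 with Cxcr2 had 0.75 and Mmp8 with Cxcr2 0.65. On the same basis Mpo had 0.74 with S100a8 and 0.71 with Ngp. These are pairs of dim genes for which r over the arrays was -0.06 and 0.10.

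Other genes of the neutrophil programme and around it were read from lists, 60 measured genes that are not among the 10. The lists include chemoattractants, S100A8/A9 receptors, transcription factors and protease inhibitors, so they are not neutrophil markers alone. In PpargΔ/Δ kidneys 6 of the 60 were called higher and 1 lower, against 2.67% and 2.62% of all genes. The lists too were chosen with earlier results of these data known, so these counts are a description. The median difference of the 60 was 0.12, against -0.0089 over all genes. Of 9 genes listed as secondary granule genes, members included, all had positive differences, as did 9338 of all 19938 genes. The list counts Bpi (0.07, dim), which is also known as a primary granule protein. The contrast with the primary granule genes below therefore depends on that assignment. Among those 9, 3 were dim, 4 had an unadjusted p under 0.05 and 2 were called higher, Ngp and Lcn2. Lcn2, the siderophore-binding lipocalin NGAL that injured tubules also secrete, read 10.5, 9.29 and 9.69 in PpargΔ/Δ kidneys, against 7.89, 7.75 and 8.01 in controls. Its difference was 1.94 ± 0.24 (3.85-fold, limma adjusted p = 0.00184), with both groups above the background level. The 4 primary granule genes, with the proteases Prtn3 (-0.17) and Ctsg (-0.11) beside Mpo and Elane, all had negative differences, as did 10600 of all genes. Of these 4, 3 were dim and 0 were called (limma, 0 at an unadjusted p under 0.05). Of the 4 gelatinase granule and protease genes Mmp8 rose and Mmp9 fell.

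Among 11 surface genes, Cxcr2 included, 9 had positive and 2 had negative differences in PpargΔ/Δ kidneys. Their median was 0.26, against -0.0089 over all genes, and 7 were dim. By limma 4 had an unadjusted p under 0.05, as did 20.4% of all genes. Of the 11, 1 was called, the decoy receptor Il1r2, which read 5.70, 5.62 and 5.63 in PpargΔ/Δ kidneys, against 5.24, 5.30 and 5.26 in controls. Its groups were tight and dim, and the difference was 0.38 ± 0.06 (limma adjusted p = 0.00529). Ly6g, the surface protein by which mouse neutrophils are usually sorted, was dim and differed by 0.03 ± 0.10 (limma adjusted p = 0.919). In AZIP kidneys its pools were all above the FVB controls, with a difference of 0.29 ± 0.10 that did not pass (limma adjusted p = 0.152). Csf3r, the G-CSF receptor, differed by 0.26 ± 0.11 (limma adjusted p = 0.189). Ifitm6 was the 1 of 7 genes of mature neutrophils that passed, at 0.43 ± 0.10, and was dim (limma adjusted p = 0.0313). Of 5 measured NADPH oxidase genes, which make the respiratory burst, 0 were called by limma and 0 reached an unadjusted p under 0.05.

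The chemoattractants gave 1 call in 10. Ppbp, a CXC chemokine that is a ligand of Cxcr2 and is stored in platelets, read 7.10, 6.6 and 7.70 in PpargΔ/Δ kidneys, against 6.01, 6.08 and 5.93 in controls. The groups did not overlap, with a difference of 1.13 ± 0.19 (limma adjusted p = 0.00878). FVB controls also read above these controls for Ppbp, by 0.57 ± 0.19 (limma adjusted p = 0.110). Cxcl1 (-0.10), Cxcl2 (0.07) and Cxcl5 (0.11), other ligands of Cxcr2, were not called. Of 6 receptors and adaptors for S100A8/A9, 0 were called, 4 had positive differences and 2 had negative ones. The 2 with an unadjusted p under 0.05 were Tlr4 (0.18) and, in the other direction, Myd88 (-0.19). Ager differed by 0.16. Of 5 protease inhibitors Timp1, an inhibitor of Mmp8 and Mmp9, rose by 0.83 ± 0.19 (limma adjusted p = 0.0300).

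Of 7 transcription factors of the granule programme Cebpd rose and Cebpa fell in PpargΔ/Δ kidneys. All 7 had means above the background level in all 4 groups, unlike most members, and which kidney cells gave these readings was not tested. Cebpd read 7.32, 7.68 and 7.57 in PpargΔ/Δ kidneys, against 7.06, 6.84 and 6.72 in controls, a difference of 0.65 ± 0.11 (limma adjusted p = 0.00825). Cebpa read 7.76, 7.38 and 7.63 in PpargΔ/Δ kidneys, against 8.43, 8.09 and 8.21 in controls, a difference of -0.65 ± 0.13 (limma adjusted p = 0.0167). Both were called in AZIP kidneys too, together with Cebpb, the factor that also differed between the control groups: Cebpa differed by -0.72 ± 0.13, Cebpd by 0.52 ± 0.11 and Cebpb by 0.41 ± 0.09 (limma adjusted p = 0.0190, 0.0331 and 0.0439). Cebpe, which drives secondary granule genes, differed by 0.04 ± 0.11 in PpargΔ/Δ kidneys (limma adjusted p = 0.895). In AZIP kidneys these 3 factors were the calls among the 60 genes, against 2.43% of all genes called. Lcn2 differed there by 0.87 ± 0.24 (limma adjusted p = 0.0847).

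**Figure D3:**
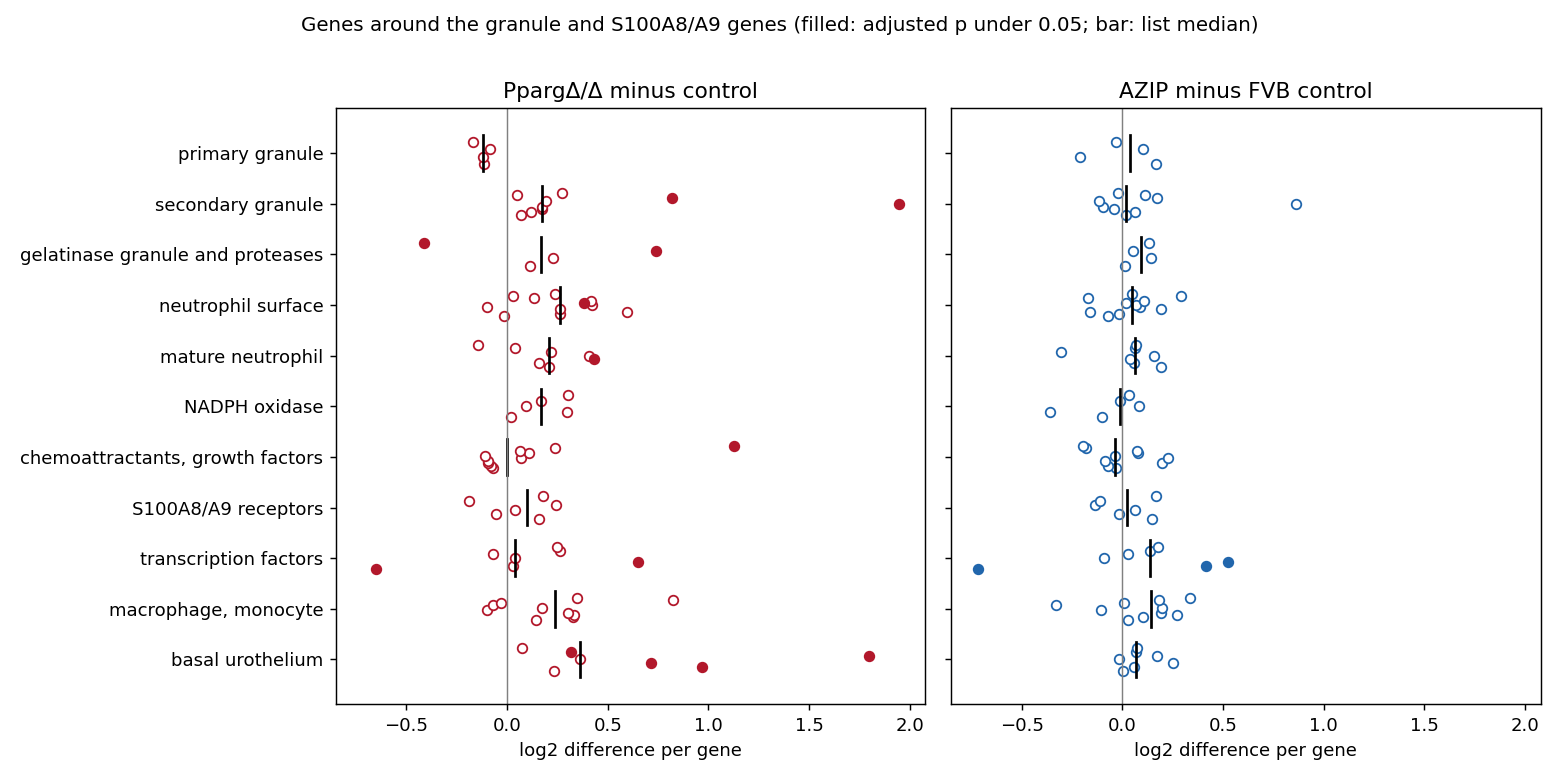
Each circle is the log2 difference of 1 measured gene (horizontal axis) in 1 list (rows), members included, for PpargΔ/Δ minus control on the left and AZIP minus FVB control on the right, with filled circles for an adjusted p under 0.05 and black bars for list medians. The 4 primary granule genes lie left of 0 in PpargΔ/Δ kidneys. All 9 genes of the secondary granule list, Bpi included, lie right of 0, with Lcn2 at 1.94. In each of these lists 3 genes are dim.

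Markers of other cells were read beside the members. Of 10 macrophage and monocyte genes 0 were called by limma in PpargΔ/Δ kidneys, 2 had an unadjusted p under 0.05, and the median difference was 0.24. Of 7 genes of the basal urothelium, the lining of the renal pelvis, 4 rose: Krt5, Krt15, Krt14 and Krt6a, of which Krt6a was dim. Krt17 (0.36), Dsg3 (0.23, dim) and Trp63 (0.07) had positive differences that were not called. Krt5 read 8.55, 8.32 and 8.95 in PpargΔ/Δ kidneys, against 6.86, 6.67 and 6.91 in controls, a difference of 1.80 ± 0.14 by limma (adjusted p = 0.00018). The summed linear reading of that list was 856 to 1146 in PpargΔ/Δ kidneys, against 504 to 549 in controls, and 523 to 555 in AZIP kidneys, against 494 to 531 in FVB controls. Platelet genes gave 1 call in 4, which was Ppbp, and erythroid genes 1 in 4, Epb42 (0.34 ± 0.09, limma adjusted p = 0.0420). The platelet list summed to 509 to 611 in PpargΔ/Δ kidneys, against 409 to 434 in controls. Its median difference was 0.19, against 1.13 for Ppbp, so the list as a whole moved less than Ppbp. It summed to 463 to 465 in AZIP kidneys and 464 to 468 in FVB controls. The erythroid list summed to 1380 to 1532 in PpargΔ/Δ kidneys, against 1255 to 1344 in controls. Mast cell and eosinophil, T cell and B cell lists gave 0 calls by limma in 18 measured genes, with 1 at an unadjusted p under 0.05. Of the 9 kidney segment genes 1 rose, the collecting duct water channel Aqp2 (0.48 ± 0.10, limma adjusted p = 0.0220). The part of these cells in the differences of the members was not tested.

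The genes most like S100a8 and Ngp over the 12 arrays were sought among 14692 genes above the background level. Closest to S100a8 by Pearson's r were Krt5 (0.95), Abi1 (0.95), Gabrp (0.95), Otub1 (0.94) and Krt15 (0.94). Closest to Ngp were Krt19 (0.95), Gabrp (0.94), Ergic1 (0.94), Krt14 (0.94) and Lcn2 (0.93). Keratins, which build the filaments of epithelial cells, were thus 4 of the 9 genes, and Gabrp, a GABA-A receptor subunit, stood in both lists. Likeness to S100a8 or Ngp over these arrays favours genes that read high in PpargΔ/Δ kidneys, so their PpargΔ/Δ differences are a description with no test. They were 1.25 for Krt19, 1.13 for Gabrp, 0.21 for Ergic1, 0.16 for Otub1 and 0.14 for Abi1.

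**Figure D4:**
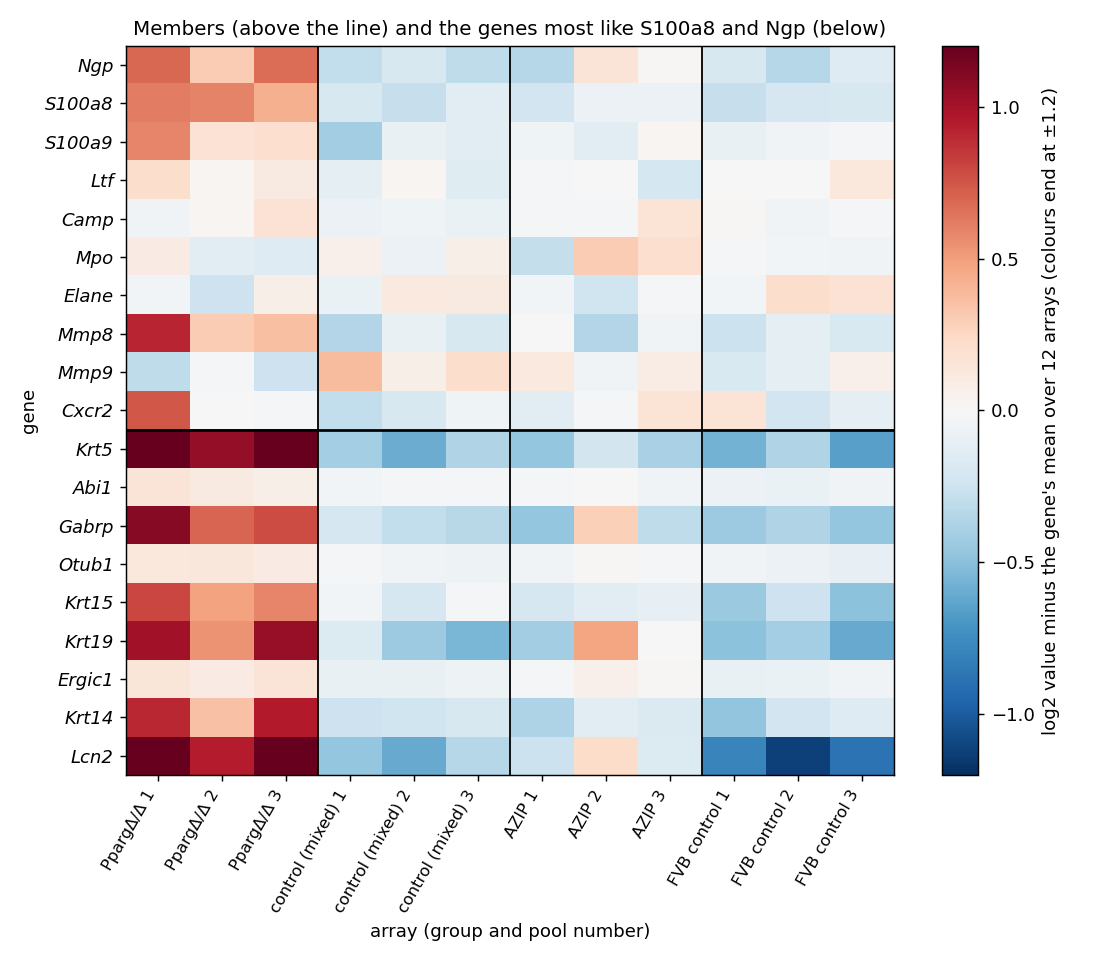
Colours give the log2 reading minus the gene's mean over the 12 arrays (scale at the right, ending at 1.2 either side of 0) for the 10 genes above the line and the 9 genes most like S100a8 and Ngp below it, with 1 column per array. PpargΔ/Δ arrays are raised for S100a8, Ngp and the genes under the line, while Mmp8 and Cxcr2 are strongest in PpargΔ/Δ pool 1 and Mmp9 runs the other way.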

How the data were processed

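Whole-kidney RNA of 36 mice in 12 pools was hybridised to Affymetrix arrays. Per the submitters' processing notes, the authors ran RMA in Affymetrix Expression Console, and the deposited values are on the log2 scale. RMA corrects background, normalizes between arrays and gives 1 value per probe set, which can compress differences at low readings. Software versions and the genome build: not given in the sources used here. Of 35556 probe sets 21789 had 1 symbol, 1621 several and 12146 none. Symbols were updated through Entrez numbers for 21698, 91 kept theirs, and 999 genes had more than 1 probe set.

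The 4 group means of each gene were estimated in 1 limma model (limma 3.58.1, R 4.3.3, 8 residual and 3.71 prior degrees of freedom). Benjamini-Hochberg adjustment ran over 19938 genes, with a threshold of 0.05. Depth has no counterpart on arrays, and 3 pools per group limit the precision (median SE 0.07). The script was tested on simulated data.

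The members and gene lists were chosen with earlier results of these data known. The text names the 10 members, up to 3 called genes per list and comparison with the smallest adjusted p, and the 5 genes most like S100a8 and Ngp. Krt6a, Krt17, Dsg3, Trp63, Prtn3, Ctsg, Bpi, Lyz2, Clec4e, Ly6g, Csf3r, Cebpe, Cxcl1, Cxcl2, Cxcl5, Tlr4 and Ager were added after their values were seen. The 20 of 141 list genes with no single-symbol probe set were not analysed here. Nor were scanner files. Alternatives were another normalization, filters on dim genes, other probe sets per gene, other variance models, weights per array, a replicate block, the compared groups alone, and each array left out.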

Additional observations from a re-analysis of the deposited data

Results flagged for a closer look

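For 2 members the arrays of the mutant lines moved in opposite directions against their own controls. How many of all genes did so was not counted, so this number is a description. Ltf lay above the mean of its controls in 3 of 3 PpargΔ/Δ pools and below it in 3 of 3 AZIP pools. The AZIP pools of Ltf differed from the FVB control mean by -0.06, -0.04 and -0.25. Its difference between the effects was 0.31 ± 0.10 (limma adjusted p = 0.813). Mmp9 lay below the mean of its controls in 3 of 3 PpargΔ/Δ pools and above it in 3 of 3 AZIP pools, with a difference between the effects of -0.55 ± 0.14 (limma adjusted p = 0.582). Neither difference passed the threshold.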

How the results depend on the processing

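Of 666 member values under the alternatives 639 kept their direction and their side of the threshold. In PpargΔ/Δ kidneys Ngp and S100a8 stayed called in every alternative that kept them (limma adjusted p up to 0.0264 and 0.00629). The 5 calls became 2 among genes above percentile 25, which removes Ngp, S100a8 and Mmp8, and 2 with the compared groups alone, and ranged from 2 (without control pool 1) to 5 with each array left out. With the compared groups alone S100a9 and Mmp8 were lost (limma adjusted p = 0.0777 and 0.0564), and Mmp9 was lost there (0.0780), over all probe sets (0.0675) and under the block. Above percentile 50 no member was left. Members called for the difference between the lines numbered 1 with array weights and 0 to 1 with each array left out, always S100a8. Members called in AZIP kidneys and between control groups stayed at 0.

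Whether the replicate numbers pair the pools was looked at by correlating deviations from group means over all genes. Same-numbered PpargΔ/Δ and control pools correlated at 0.18, 0.18 and 0.0086, and differently numbered ones at -0.26 to 0.15. Same-numbered AZIP and FVB control pools correlated at -0.04, -0.10 and -0.0099, and differently numbered ones at -0.11 to 0.15. These values do not settle whether the pools are paired. With the replicate block 4 members were called in PpargΔ/Δ kidneys, without Mmp9 (limma adjusted p = 0.0510), and 0 in AZIP kidneys, with 1102 and 694 genes called in all.

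Signs turned for small differences that were called in no setting. With each array left out, the AZIP difference ranged from -0.041 to 0.036 for S100a9, from -0.011 to 0.28 for Mpo, from -0.012 to 0.17 for Mmp8 and from -0.016 to 0.18 for Cxcr2. The difference between the lines ranged from -0.0049 to 0.12 for Camp. The difference between control groups ranged from -0.0029 to 0.092 for Ngp, from -0.063 to 0.0083 for S100a8, from -0.00066 to 0.14 for Elane and from -0.046 to 0.089 for Mmp8, and was -0.0070 for Ngp with array weights.

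Counts over all genes moved by more than 1.5 times. For PpargΔ/Δ against control the 1055 genes became 607 with the compared groups alone and 330 to 1084 with each array left out. For AZIP the 485 became 836 above percentile 50, 785 with a variance trend, 176 over all probe sets, 162 with the compared groups alone and 62 to 569 with each array left out. For the difference between the lines the 4 became 0 to 9, and for the control groups the 1439 became 2219 with array weights and 852 to 947 with each array left out. The cause was not tested.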
